A study of Mus musculus with 8 samples.

Results

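The genes described here encode the proteasome and its immunoproteasome variant in CD8+ T cells sorted from lymph nodes (LN) or MC38 tumors of mice. They were chosen by symbol: every gene of the array annotation whose symbol begins with Psm, a letter from a to g and a digit. This pattern matched 51 symbols, of which 49 have a probe set of their own, out of 18193 genes measured. *Psme2* and its relative *Psme2b* are read only by a probe set that names several genes, so neither has a value here. Of the 49 members, 47 encode subunits, activators, an inhibitor or assembly factors, and the remaining 2 (*Psmc3ip*, a meiotic recombination cofactor, and *Psme3ip1*, a partner of a proteasome activator) only match the pattern.

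The series holds 8 Affymetrix mouse arrays in 4 groups of 2: tumor T cells from mice given 5 Gy of whole-body ionizing radiation (IR), tumor T cells without IR, LN T cells with IR and LN T cells without IR. All donors were C57BL/6 females, 6 to 8 weeks old when MC38 colon carcinoma cells were placed under the skin, so the LN cells also came from tumor-bearing mice. Irradiated animals were killed 5 h after the dose, and each array holds RNA from a pool of 4 mice. Cells were enriched for CD8 and sorted as CD3+CD8+CD44+CD62L-, the surface phenotype of effector and effector memory T cells, after enzymatic digestion of tumors but only mechanical disruption of LN, so digestion and tissue cannot be told apart. Inguinal and axillary nodes, on the tumor's side or not, were combined.

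The proteasome is the protease that degrades proteins tagged with ubiquitin. Its core particle is a barrel of alpha and beta rings with catalytic sites inside, and its regulatory particle holds an ATPase ring that unfolds substrates and a lid that recognizes and strips ubiquitin. Lymphocytes, and other cells exposed to interferon gamma, exchange the catalytic subunits *Psmb5*, *Psmb6* and *Psmb7* for *Psmb8*, *Psmb9* and *Psmb10*, which gives the immunoproteasome, a form that favors peptides suited to MHC class I. *Psme1* encodes a subunit of the interferon-induced PA28 cap.

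Promoter stretches of the immunoproteasome genes and of *Psmb5* and *Psmb6* are shown, since these catalytic and cap genes are described array by array below, as the 110 bases before the annotated start, with motif letters in capitals. RefSeq (GRCm38.p6) places them at chr17:34198085-34198194 (plus strand) for *Psmb8*, chr17:34187331-34187440 (minus strand) for *Psmb9*, chr8:105938393-105938502 (minus strand) for *Psmb10*, chr14:55578384-55578493 (plus strand) for *Psme1*, chr14:54617996-54618105 (minus strand) for *Psmb5* and chr11:70525247-70525356 (plus strand) for *Psmb6*.
*Psmb8*: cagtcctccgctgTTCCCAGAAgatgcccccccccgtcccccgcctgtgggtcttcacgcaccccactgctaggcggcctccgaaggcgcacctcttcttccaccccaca
*Psmb9*: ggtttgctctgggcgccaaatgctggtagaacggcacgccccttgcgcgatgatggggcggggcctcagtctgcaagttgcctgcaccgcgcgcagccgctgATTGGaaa
*Psmb10*: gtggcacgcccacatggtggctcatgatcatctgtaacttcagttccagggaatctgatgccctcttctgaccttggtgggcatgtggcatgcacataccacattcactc
*Psme1*: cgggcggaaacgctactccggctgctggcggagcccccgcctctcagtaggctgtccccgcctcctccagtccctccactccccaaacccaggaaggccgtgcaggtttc
*Psmb5*: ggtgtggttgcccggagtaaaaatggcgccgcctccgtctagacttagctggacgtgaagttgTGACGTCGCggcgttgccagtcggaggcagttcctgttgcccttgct
*Psmb6*: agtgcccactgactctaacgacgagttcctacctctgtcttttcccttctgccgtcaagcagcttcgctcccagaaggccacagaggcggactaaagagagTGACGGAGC
The capitals mark TTCNNNGAA, the gamma-activated site bound by STAT factors, in *Psmb8*, a CCAAT box on the opposite strand in *Psmb9*, and TGACNNNGC, the core of the antioxidant response element, in *Psmb5* and *Psmb6*. The stretches of *Psmb10* and *Psme1* hold none of the letters searched. The RefSeq table holds promoters for 41 of the 49 members, and 250 bases before each start were searched on both strands. Of all 32851 promoters, 7.02% hold TTCNNNGAA, and among members *Psmb8* and *Psmg1* do. The antioxidant core is in 10.2% of all promoters and in those of *Psmb5*, *Psmb6*, *Psmc6*, *Psmd12* and *Psmd9*. The interferon regulatory core GAAANNGAA occurs in 7.13% of promoters, with matches in *Psmb3*, *Psmd4* and *Psmd9*, while CCAAT occurs in 33.8% and in 16 members. A match in these letters is a description of the sequence and not a binding site.

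Levels are the deposited log2 intensities, on which a difference of 1 is a 2-fold difference. To be called as rising or falling, a gene needed both a Benjamini-Hochberg adjusted p under 0.1 in limma's test over all annotated probe sets and a log2 fold change of 1 or more in either direction, and a second count drops the limit on size. Transcripts of sort markers were bright on every array, with *Cd3e*, part of the CD3 complex, at 12.14 to 12.63 and *Cd8a*, a chain of the CD8 coreceptor, at 12.09 to 12.67. These levels do not measure the purity of the sort. Irradiation was visible in p53 target genes, of which 15 of 16 rose in LN and 6 of 16 in tumor T cells. Macrophage and monocyte markers averaged 8.86 to 11.01 on the tumor arrays, against 6.42 to 6.95 on the LN arrays, and 16 of 20 were higher in tumor T cells without IR. Fibroblast markers were also higher in tumor T cells (8 of 14 without IR), and B cell markers lower (5 of 13). Some of these markers were about as bright as *Cd3e* on tumor arrays. The macrophage gene *C1qa* read 10.59 to 12.56 there and the fibroblast gene *Col3a1* 12.51 to 12.81, against 5.53 to 6.88 and 5.67 to 8.30 on LN arrays. Whether RNA of these other cells contributed to the levels below was not tested.

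Most members gave bright signals. For 45 of the 49 members the mean of the 8 arrays lay above the upper quartile of the arrays, which is 8.40 to 8.62. *Psma8*, the alpha subunit of the testis, had group means of 5.34 to 5.55, where the lower quartiles of the arrays run between 5.38 and 5.59, and *Psmb11*, the catalytic subunit of the thymic cortex, stayed between 5.55 and 6.06. Neither is shown to exceed background in these cells.

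The second LN array with IR stood apart and bears on every LN comparison with IR. It held the lowest of the 8 values for 35 of the 49 members, against 27.5% of all genes. Those members included 11 of 14 core and 16 of 17 regulatory particle genes, but 1 of 4 immunoproteasome genes. The replicates of LN T cells with IR correlated at 0.966 over all genes, against 0.982 to 0.993 in the other groups, and for the members the median size of their difference was 0.43, against 0.04 to 0.14 elsewhere. On the second array the proliferation genes averaged 8.70, against 9.73 to 10.53 on the other 7 arrays. Without IR the second LN array was also the lower one, at 9.73 against 10.53. *Mki67*, a proliferation gene, read 11.10 and 8.21 in LN T cells with IR and 11.89 and 7.92 without. On the second LN array with IR the difference between 3' and 5' control probes of *Gapdh* was -0.55, against -0.44 to -0.23. For *Actb* that difference was 0.06, within the 0.02 to 0.27 of the other arrays. Their part in the low proteasome values was not tested. In those comparisons the leading members, the catalytic genes and the class medians are also described without this array. That leaves 1 array in the group, whose spread is then not measured, so these values are given without a test.

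**Figure D1:**
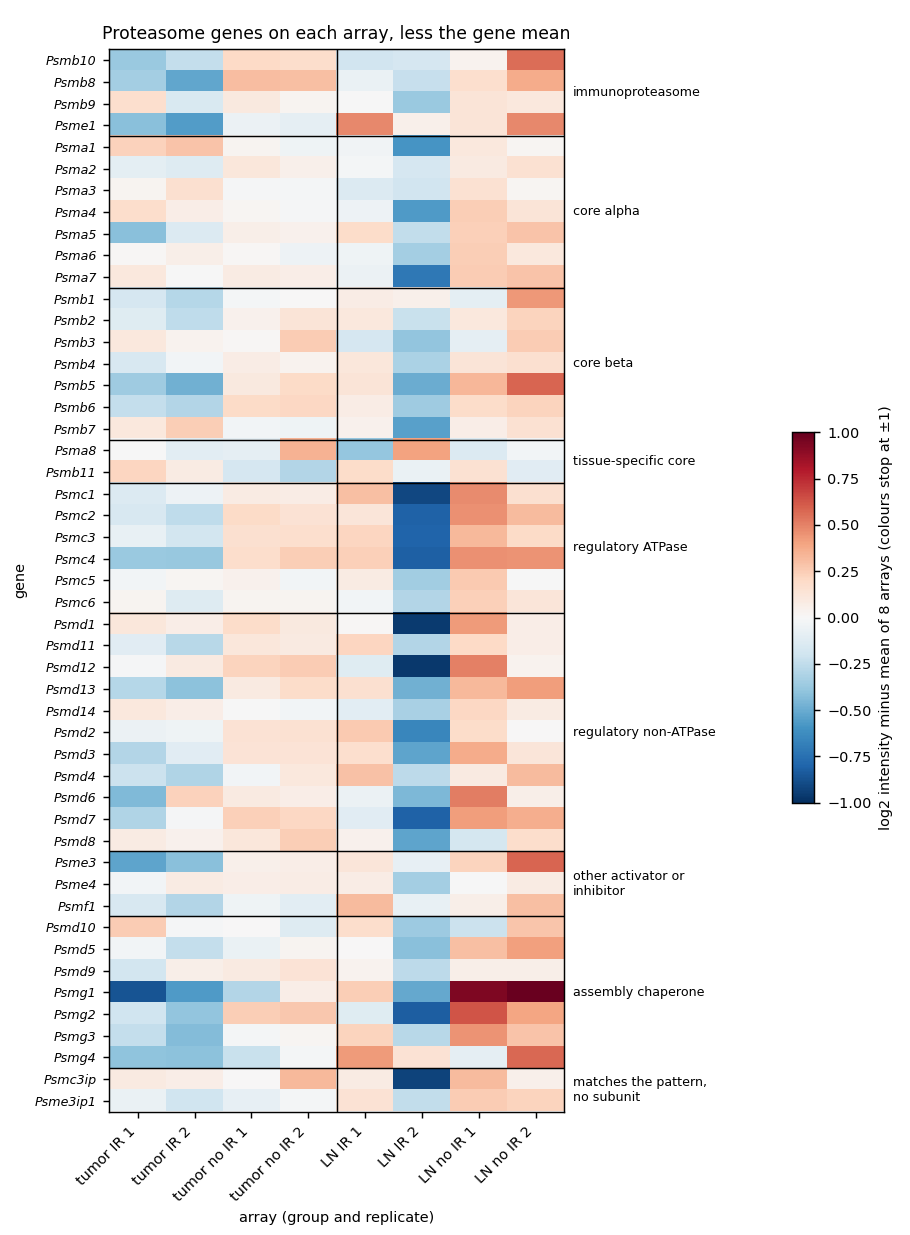
Each row is 1 of the 49 genes, grouped by role, and each column 1 of the 8 arrays. Color gives the log2 intensity less the mean of that gene over the 8 arrays, with the scale stopped at 1 on either side. LN IR replicate 2 is the lowest array for 35 genes, mostly of the core and regulatory particles, while *Psmb8*, *Psmb10* and *Psme1* are lowest in irradiated tumor T cells.

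The first question was what IR did to proteasome transcripts within tumor T cells. None of the 49 members changed: 0 passed at both limits and 0 at any size, where 0.0989% of all genes passed. At an unadjusted p under 0.05 there were 5 members (*Psmb8*, *Psmb10*, *Psmb5*, *Psmb6* and *Psme3*), all with lower values after IR, against 16.6% of all genes.

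Of the 49 members, *Psmb8* had the lowest log2 fold change of IR in tumor T cells. *Psmb8*, the immune form of the chymotrypsin-like subunit, read 11.92 and 11.74 in tumor T cells with IR, against 12.57 and 12.56 without it. All irradiated values lay below both controls, with a log2 fold change of -0.74 (SE 0.15, 95% interval -1.09 to -0.38), although it did not pass (limma adjusted p = 0.25). With the T cell scaling explained below it was -0.44 (adjusted p = 0.218). In such pools, fewer cells that express a gene and less of its RNA per cell cannot be told apart. *Psmb10*, the immune form of the trypsin-like subunit, read 11.06 and 11.19 with IR and 11.63 and 11.61 without (-0.50, SE 0.19). *Psme1* read 11.16 and 11.02 with IR and 11.52 and 11.49 without (-0.42, SE 0.20). Both genes separated the groups in the same direction as *Psmb8* and missed the threshold.

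*Psmb9*, the third immune catalytic subunit and a neighbor of *Psmb8* in the MHC region of chromosome 17, did not follow them. Its values were 11.68 and 11.36 in irradiated tumor T cells and 11.61 and 11.54 in controls, which overlap (-0.06, SE 0.18, 95% interval -0.49 to 0.37). The interval still allows a difference of modest size in either direction.

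The constitutive catalytic subunits also split, but not along the matching pairs. *Psmb5*, the chymotrypsin-like subunit that *Psmb8* replaces, read 10.44 and 10.32 with IR, against 10.90 and 10.99 without (-0.57, SE 0.22, limma adjusted p = 0.316). *Psmb6*, the caspase-like subunit replaced by *Psmb9*, read 10.80 and 10.74 with IR and 11.23 and 11.24 without (-0.47, SE 0.17). In both genes every irradiated tumor array lay below every control. *Psmb7*, the trypsin-like subunit replaced by *Psmb10*, instead read 9.95 and 10.09 with IR and 9.82 and 9.80 without (0.21, SE 0.21), so its irradiated arrays were the higher ones.

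Within a pair, the immune and constitutive fold changes in tumor T cells therefore differed by -0.17 for *Psmb8* less *Psmb5*, by 0.41 for *Psmb9* less *Psmb6* and by -0.71 for *Psmb10* less *Psmb7*. These differences were not tested. The pairs differ in sign, and whether the immune forms shift together against the constitutive ones was not tested either.

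**Figure D2:**
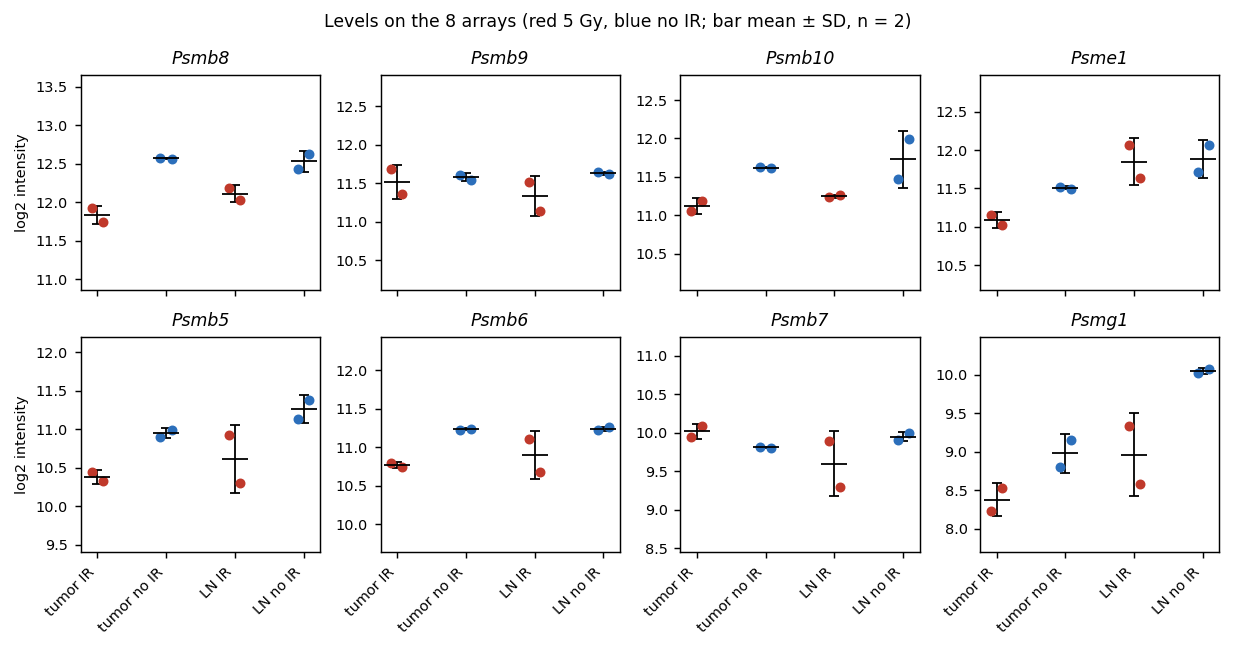
Log2 intensity of 8 genes on each array, with tumor IR, tumor no IR, LN IR and LN no IR from left to right in every panel. Points are arrays (red 5 Gy, blue no IR), bars are the mean ± SD of 2 arrays, and all panels span the same height. *Psmb8* stands at 11.74 to 11.92 in irradiated tumor T cells and at 12.56 to 12.57 in tumor T cells without IR, *Psmb9* overlaps, and *Psmg1* is highest in LN T cells without IR.

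By class, the median log2 fold change of IR in tumor T cells was -0.46 for the 4 immunoproteasome genes, -0.11 for the 14 core genes, -0.20 for the 17 regulatory particle genes and -0.28 for the 7 assembly factors, beside 0.09 over all genes and -0.11 over the 5726 bright genes, those with a mean above the upper quartile. These directions depend on the scaling: with arrays scaled to T cell identity genes, which themselves had a median of -0.29 after IR, the class medians were -0.16 (immunoproteasome), 0.18 (core) and 0.09 (regulatory), and the median of all genes was 0.38. The number of members below 0 was 41 of 49 (all genes 40.3%, bright genes 64.7%), 32 after cyclic loess and 17 with the T cell scaling.

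Groups did not overlap, with IR lower, for 29 members in tumor T cells (all genes 26%, bright genes 46.9%). Of these, 12 belonged to the regulatory particle, 7 to the core, 5 to the assembly factors and 3 to the immunoproteasome. The opposite separation was seen in 6 members, against 41.4% of all genes. They were the alpha ring genes *Psma1*, *Psma3* and *Psma4*, with *Psmb7*, *Psmb11* and the lid deubiquitinase gene *Psmd14*. The largest values above 0 were those of *Psmb11* (0.38, at a level near background), *Psma1* (0.26) and *Psmb7* (0.21), and the largest below 0 after *Psmb8* were *Psmg1* (-0.60) and *Psmc4*, an ATPase of the regulatory ring (-0.59).

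Macrophage and monocyte markers moved with the irradiated tumor arrays as well. Their mean was 8.86 and 10.25 with IR, against 10.18 and 11.01 without, and 19 of 20 had a log2 fold change below 0 (median -1.16), although 0 passed. Their part in the values of the members was not tested.

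The count in tumor T cells depended on the fit. From only the 4 tumor arrays, 10 members passed at any size, all with lower values after IR (*Psmb8*, *Psmb10*, *Psme1*, *Psmb5*, *Psmb6*, *Psmc4*, *Psmd13*, *Psme3*, *Psmg1* and *Psmg2*), where 15.4% of all genes passed and 7.05% were lower. With array weights 11 passed, 10 of them lower, beside 21.5% of all genes. The robust fit of all 8 arrays passed 9, all lower, beside 19.7% of all genes. A fit without 1 of the LN arrays with IR leaves 1 array in that group, with no spread of its own, so its calls are not counted here. None of the fits counted put a member past the fold limit.

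In LN T cells IR likewise changed 0 of the 49 members, at both limits (1.05% of all genes) and at any size (1.5%). At an unadjusted p under 0.05 there were 14 members, all below 0, against 14.3% of all genes.

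The largest fold changes in LN T cells were in assembly factors of the core particle. *Psmg1*, a member of the chaperone pair that starts the alpha ring, read 9.34 and 8.58 with IR, against 10.03 and 10.08 without. Both irradiated arrays lay below both controls (-1.09, SE 0.27, limma adjusted p = 0.156), and without the second LN array with IR the value was -0.71. *Psmg2*, its partner in that pair, had a log2 fold change of -0.98 (SE 0.24, adjusted p = 0.153), or -0.63 without that array. *Psmd7*, a lid subunit, followed at -0.85, or -0.50 without it. The values above 0 were small: *Psma8* at 0.09 (-0.30 without that array), with *Psmg4*, another alpha ring chaperone, and *Psmb11* both at 0.04 (0.18 and 0.16).

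Among immunoproteasome genes in LN T cells, *Psmb8* read 12.19 and 12.03 with IR and 12.43 and 12.63 without (-0.43, SE 0.15, or -0.34 without the second LN array with IR). *Psmb10* read 11.24 and 11.26 with IR and 11.47 and 11.99 without (-0.48, SE 0.19, or -0.50). *Psmb9* read 11.51 and 11.14 with IR and 11.64 and 11.62 without (-0.30, SE 0.18, or -0.12). The 3 genes did not overlap between groups, with IR lower, and none passed. *Psme1* overlapped, at 12.06 and 11.63 with IR and 11.71 and 12.06 without (-0.04, SE 0.20, or 0.18). Its 95% interval, -0.51 to 0.43, leaves room for a difference as large as that in tumor T cells.

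For the constitutive catalytic genes the second LN array with IR carried much of the difference. *Psmb5* read 10.93 and 10.30 with IR and 11.13 and 11.38 without (-0.64, or -0.33 without that array). *Psmb6* read 11.11 and 10.68 with IR and 11.22 and 11.26 without (-0.35, or -0.13). *Psmb7* read 9.89 and 9.30 with IR and 9.91 and 10.00 without (-0.36, or -0.06). The first irradiated array also lay below both controls in each of these 3 genes.

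Class medians of IR in LN T cells were -0.36 (immunoproteasome), -0.35 (core), -0.53 (regulatory) and -0.40 (assembly), beside 0.01 over all genes and -0.22 over bright genes. Scaled to T cell identity genes, whose own median was -0.39, the first 3 became 0.01, 0.02 and -0.16. Without the second LN array with IR the medians were -0.23 (immunoproteasome), -0.13 (core), -0.21 (regulatory) and -0.15 (assembly), beside 0.02 over all genes. Members below 0 numbered 46 of 49 (all genes 49.1%, bright genes 70.6%), 40 after cyclic loess, 39 without that array and 22 with the T cell scaling. The groups did not overlap, with IR lower, for 32 members (all genes 19.5%, bright genes 32.9%), among them 13 of 14 core genes. The first irradiated array alone lay under both controls for 33 members, against 30% of all genes.

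The values in LN T cells depended on that pair of arrays. Without the first LN array with IR the class medians were -0.48 (immunoproteasome), -0.52 (core) and -0.78 (regulatory). Without the second they were -0.23, -0.13 and -0.21. Either fit leaves 1 array in the group, so no count of members passing is given. A robust fit, which the study used, passed 15 members at any size (13.3% of all genes), all lower. Array weights passed 0 (0.379% of all genes). They gave both LN arrays with IR the same weight (0.37), so they do not set the second apart from the first.

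**Figure D3:**
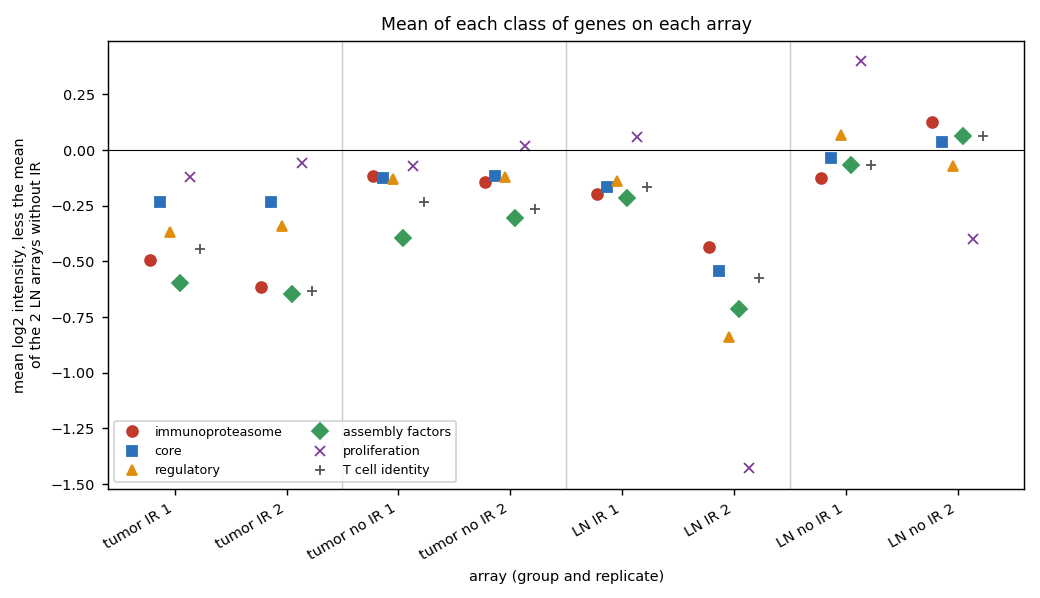
Mean log2 intensity of each class on each array, relative to unirradiated LN (mean of 2 arrays), with the proliferation and T cell identity genes beside them. In irradiated tumor T cells the immunoproteasome and assembly means lie below the core mean on both arrays. On LN IR replicate 2 the regulatory particle lies furthest below unirradiated LN of the proteasome classes. Before the subtraction its mean is 9.92 there, against 10.83 and 10.69 on the unirradiated LN arrays. The proliferation genes are at 8.70, against 10.53 and 9.73. Scaled to the T cell identity genes, the immunoproteasome, core and regulatory medians of IR are smaller in size or above 0. That of the assembly factors was not computed.

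Both tissues can be set side by side because the IR comparisons share no array. Values were below 0 in both for 39 members (29.7% of all genes). In 18 members (10.6% of all genes) the irradiated arrays lay below the controls in tumor and in LN T cells alike. These were *Psmb8* and *Psmb10* of the immunoproteasome, *Psma2*, *Psma5*, *Psmb2*, *Psmb4*, *Psmb5* and *Psmb6* of the core, *Psmc2*, *Psmc4*, *Psmd7*, *Psmd12* and *Psmd13* of the regulatory particle, the nuclear activator *Psme3*, and the assembly factors *Psmd9*, *Psmg1*, *Psmg2* and *Psmg3*. With the T cell scaling the medians of the core and regulatory classes in tumor T cells lay above 0.

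The difference between the tissues was tested as an interaction, the IR effect in tumor less that in LN T cells. It passed for 0 members, as for 0% of all genes, and at an unadjusted p under 0.05 for 0 members against 5.63% of all genes. Members below 0 numbered 14 of 49, against 34.2% of all genes. The lowest values were those of *Psme1* (-0.38, 95% interval -1.04 to 0.28), *Psmg4* (-0.32) and *Psmb8* (-0.31, 95% interval -0.82 to 0.20), and without the second LN array with IR these were -0.59, -0.46 and -0.39. The highest were those of *Psmd1*, the large scaffold of the base (0.66, 95% interval -0.36 to 1.68), *Psma7* (0.63) and *Psma1* (0.63), or 0.17, 0.29 and 0.35 without that array. In 5 members (3.09% of all genes) the arrays separated in opposite directions, irradiated arrays above controls in tumor and below them in LN T cells: *Psma1*, *Psma3*, *Psma4*, *Psmb7* and *Psmd14*. *Psma1* read 11.80 and 11.86 with IR and 11.60 and 11.53 without in tumor T cells, and 11.54 and 10.98 with IR and 11.68 and 11.59 without in LN T cells. Its interaction had an unadjusted p of 0.0573 in limma and an adjusted p of 0.782. The median was -0.16 for the immunoproteasome, 0.20 for the core and 0.26 for the regulatory particle, beside 0.12 over all genes. For *Psmb7* the interaction without the second LN array with IR was 0.27, and for *Psmb5* and *Psmb6* -0.24 and -0.34. Without that array the medians were -0.20, 0.06 and -0.16, beside 0.07 over all genes, and 26 members were below 0.

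**Figure D4:**
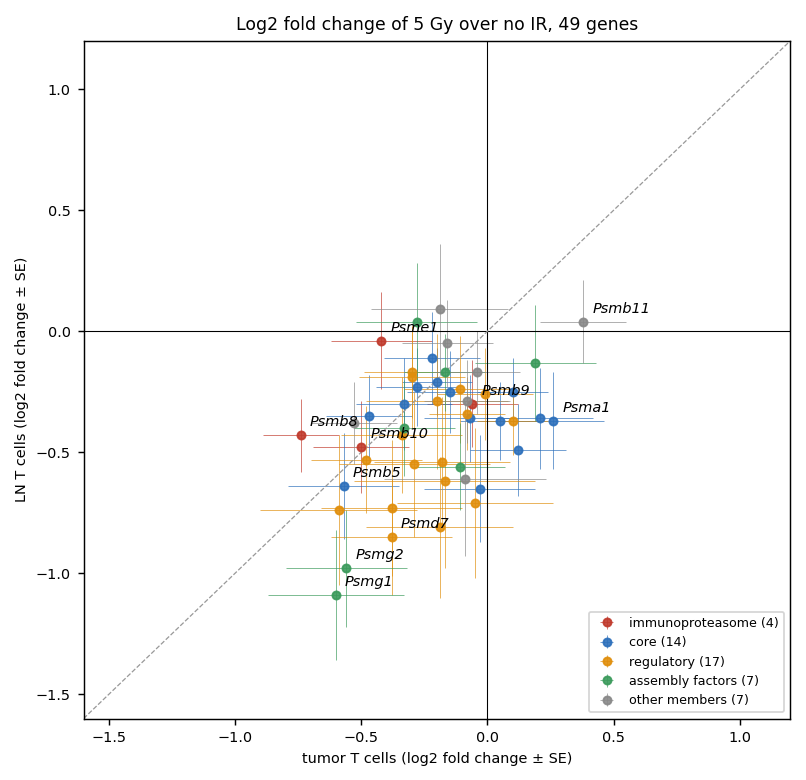
Irradiated over unirradiated cells, as a log2 fold change for each of the 49 genes, in tumor T cells (horizontal) and in LN T cells (vertical), with 1 SE on each axis and color by class. The dashed line marks equal values. Most genes lie below 0 on both axes (39 of 49), against 17 below 0 in tumor T cells and 22 in LN T cells after scaling to T cell identity genes, and no gene passed the test of the difference.

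The study also compared tumor with LN T cells without IR. *Psmg1* was the 1 member that changed, in a comparison in which 5.54% of all genes did and 1.04% fell. It was also the 1 member at any size (8.32% of all genes) and at an unadjusted p under 0.05 (17.7%). It read 8.80 and 9.16 in tumor T cells, against 10.03 and 10.08 in LN T cells. All tumor values lay below all LN values, and the gene fell by 1.07 on the log2 scale (SE 0.27, limma adjusted p = 0.0746). The call was lost with the replicate number as a block (adjusted p = 0.101), with the T cell scaling (-0.82, adjusted p = 0.104) and when any 1 of the 6 arrays outside the irradiated LN group was left out (adjusted p = 0.137 to 0.372). No other single-gene probe set reads *Psmg1*.

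The other assembly factors differed less. *Psmd5*, which caps the base during assembly, was at -0.38 (SE 0.18) and *Psmg2* at -0.25 (SE 0.24), and neither passed. *Psme1* read 11.52 and 11.49 in tumor T cells and 11.71 and 12.06 in LN T cells (-0.38, SE 0.20). At the other end stood *Psma8* (0.21, at a level near background), the regulatory lid gene *Psmd8* (0.18) and *Psmd2*, a scaffold of the base (0.06).

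The catalytic genes were close between the tissues without IR. *Psmb8* was 12.57 and 12.56 in tumor T cells, against 12.43 and 12.63 in LN T cells (0.03, 95% interval -0.32 to 0.39). *Psmb9* was at -0.06, *Psmb10* at -0.11, *Psmb5* at -0.31, *Psmb6* at 0.00 and *Psmb7* at -0.15, and none of them passed.

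Class medians of tumor over LN without IR were -0.08 for the immunoproteasome, -0.12 for the core, -0.15 for the regulatory particle and -0.37 for the assembly factors, beside -0.09 over all genes. Below 0 were 42 of 49 members (62.8% of all genes), but 9 with the T cell scaling, under which the immunoproteasome median was 0.17 and the core median 0.13. Tumor arrays all lay below LN arrays for 26 members, against 35.2% of all genes.

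With IR, 0 members changed between tumor and LN T cells at both limits (6.8% of all genes), and *Psme1* passed the adjusted p alone (12.9% of all genes, 4.5% lower). At an unadjusted p under 0.05 there were 4 members, against 21.7% of all genes: *Psme1*, *Psmg4*, *Psme3* and *Psma1*. *Psme1* read 11.16 and 11.02 in tumor T cells, against 12.06 and 11.63 in LN T cells. The tumor arrays were the lower ones, with a log2 fold change of -0.76 (SE 0.20, 95% interval -1.22 to -0.29, limma adjusted p = 0.0655). Without the second LN array with IR it was -0.97 (adjusted p = 0.0351), and with the T cell scaling -0.58 (adjusted p = 0.113). It did not pass with array weights, from only the 4 arrays compared, or without any 1 of the 4 tumor arrays.

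*Psmg4* (-0.69, SE 0.24) and *Psmg1* (-0.58, SE 0.27) had the next lowest values and did not pass. *Psmg1* read 8.23 and 8.53 in irradiated tumor T cells and 9.34 and 8.58 in irradiated LN T cells, so the irradiated LN replicates alone span most of the distance. Without the second LN array with IR, which leaves 1 array in that group, it stood at -0.96 and *Psmc4* at -0.62. The highest values were those of the lid gene *Psmd12* (0.59), *Psmd1* (0.56) and *Psma1* (0.56), which without that array were 0.16, 0.07 and 0.29.

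Among the catalytic genes with IR, *Psmb7* was at 0.42, *Psmb9* at 0.19, *Psmb10* at -0.12, *Psmb6* at -0.13, *Psmb5* at -0.24 and *Psmb8* at -0.28 in tumor over LN T cells, and none passed. Without the second LN array with IR these were 0.13, 0.01, -0.11, -0.35, -0.55 and -0.36. Tumor arrays lay below LN arrays for 3 of the 4 immunoproteasome genes (*Psmb8*, *Psmb10* and *Psme1*) and above them for 7 of the 14 core genes. Over all members these counts were 8 below and 11 above, against 20% and 30.1% of all genes. The median was -0.20 for the immunoproteasome, 0.11 for the core and 0.14 for the regulatory particle, beside 0.06 over all genes. Without that array the medians were -0.23, -0.02 and -0.32, beside 0.03 over all genes. Members below 0 numbered 21 of 49 (42.5% of all genes), 36 without that array and 12 with the T cell scaling.

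**Figure D5:**
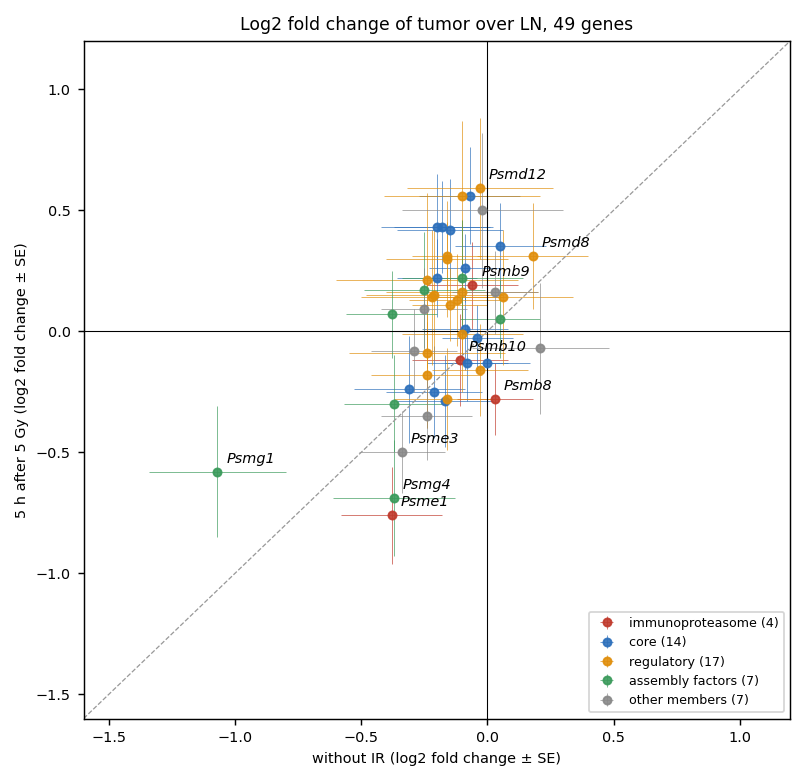
Log2 fold change of tumor over LN T cells for each of the 49 genes, without IR (horizontal) and 5 h after 5 Gy (vertical), with 1 SE on each axis and color by class. *Psmg1* at -1.07 without IR is the 1 gene past both limits, and *Psme1* at -0.76 with IR passed the adjusted p alone. Of the 17 regulatory genes, 5 lie below 0 with IR, but 13 without LN IR replicate 2. For the 14 core genes these counts are 6 and 7, and for all 49 genes 21 and 36.

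Other probe sets did not always follow the one used. The 49 members have 103 probe sets, and of 23 members with several, all sets above the lower quartile shared a sign for 15 in tumor over LN without IR, 8 with IR, 9 for IR in tumor and 11 for IR in LN T cells. In tumor over LN with IR, 5 probe sets of 5 genes passed the adjusted p: that of *Psme1*, further sets of *Psmb1* (0.88) and *Psmd11* (0.76), which read higher in tumor T cells, and further sets of *Psma1* (-0.65) and *Psmd9* (-0.67). For these last 4 genes the brighter set used here had the opposite sign (-0.29, -0.16, 0.56 and 0.05). Which set measures the main transcript was not tested. A repeat was closer for *Psmc4*, whose other set was at -0.48 after IR in tumor T cells, against -0.59. For *Psmg2* the second brightest set was at -1.03 after IR in LN T cells, against -0.98. Its dimmest set, with a mean of 6.49, was at 0.06 there.

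Genes that work with the proteasome were read from a further list. Of 23 listed cofactors, shuttle factors and transport genes, 16 were measured and 0 changed in any comparison. The median of IR was -0.16 in tumor and -0.31 in LN T cells. *Pomp*, the maturation factor of the core particle, was at -0.37 in tumor and -0.32 in LN T cells after IR, and *Usp14*, a deubiquitinase of the base, at -0.48 and -0.49. *Akirin2*, which brings proteasomes into the nucleus, passed the adjusted p alone in tumor over LN with IR (0.48, adjusted p = 0.0713).

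Of 8 measured regulators of proteasome genes, 0 changed at both limits. *Stat3* was higher in tumor T cells without IR at any size (0.87, adjusted p = 0.0853), and *Nfyb*, a subunit of the factor that binds CCAAT, was lower in tumor T cells with IR (-0.54, adjusted p = 0.0865). *Nfe2l1*, which drives proteasome genes when proteasomes are inhibited, was at -0.54 after IR in tumor T cells and at -0.26 in LN T cells, and did not pass. *Uba6*, a ubiquitin-activating enzyme and the measured 1 of 6 ubiquitin pathway genes listed, was lower after IR in LN T cells at any size (-0.92, adjusted p = 0.0776), and read 8.45 and 8.29 with IR, against 9.43 and 9.14 without.

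MHC class I presentation genes, which use the peptides that proteasomes make, changed in 0 of 14 cases in every comparison. *Tapbp*, which encodes tapasin of the peptide-loading complex, passed the adjusted p alone in tumor over LN with IR (-0.69, adjusted p = 0.058), the comparison in which *Psme1* did. It read 11.26 and 11.25 in tumor T cells, against 12.04 and 11.85 in LN T cells. *Tap1*, a subunit of the peptide transporter, was at -0.47 there, while *Tap2* was at 0.06, *B2m* at -0.30, *H2-K1* at -0.07 and *H2-D1* at -0.08. After IR the list had a median of -0.15 in tumor and -0.09 in LN T cells.

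Interferon response genes, some of which share regulation with the immunoproteasome, included 8 of 27 that were lower and 1 that was higher in tumor over LN T cells with IR. The lower ones included *Ifit3* (-2.31, adjusted p = 0.0197), *Ifit1* (-1.98, adjusted p = 0.0399) and *Zbp1*, a nucleic acid sensor (-1.49, adjusted p = 0.0167). *Cxcl9*, a chemokine that macrophages also make, was the higher one (3.06, adjusted p = 0.0336). Without IR, 3 were lower and 1 higher. After IR 0 of the 27 changed in either tissue, and their median was -0.25 in tumor and 0.25 in LN T cells. Proliferation genes had a median of 0.05 in tumor and -0.69 in LN T cells after IR, with 0 of 21 changed, and the LN value includes the array that stood apart.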

How the data were processed

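RNA of 8 pools of sorted T cells was hybridized to 8 Affymetrix whole-genome mouse arrays. The authors processed them with RMA (version not given in the sources used here), which corrects background, normalizes the arrays to a common distribution and summarizes each probe set, and deposited log2 values for 45101 probe sets, used as deposited. Of these, 34945 name 1 gene, 932 name several and 64 are controls, and tests ran over the 35877 annotated sets. A gene was read from the single-gene set with the highest mean of the 8 arrays.

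The 4 groups were fitted by least squares with limma 3.58.1 (R 4.3.3) and empirical Bayes moderation, on 4 residual plus 3.13 prior degrees of freedom. Adjusted p-values are Benjamini-Hochberg values over all 35877 sets. The thresholds (0.1 and a log2 fold change of 1) are those of the study. The study's robust fit is an alternative, and its intersection with SAM was not run. The script was tested on simulated data. An SE is that of limma and an SD is over 2 arrays.

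The members and gene lists were chosen with earlier results of these data known. Named are the immunoproteasome and catalytic genes, every called member, the 3 members with the largest values in each direction per comparison, called list genes and MHC class I genes. Alternatives were other fits, thresholds, probe set rules and scalings, replicate number as a block, and leaving out each array. The design text names 2 independent experiments but the labels do not tie replicate numbers to them. The number of arrays limits precision. The p-values set a difference against the spread between pools, estimated over all 4 groups without a term for replicate number. The promoters are from RefSeq, and mouse chromosome 18 was left out of the sequences shown.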

Additional observations from a re-analysis of the deposited data

How the results depend on the processing

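In tumor over LN T cells without IR, 1 member changed, and 1 also passed at any size. Both counts were 0 with replicate number as a block, at an adjusted p under 0.05 and when scaled to T cell identity. The robust fit passed 2 at any size, beside 20.6% of all genes. The call was not always kept when single arrays were left out. In tumor over LN T cells with IR, the count at both limits was 1 with no fold limit or a fold limit of 1.5 and 0 to 3 without single arrays. At any size (1 member) it was 11 by the robust fit, 4 after cyclic loess, 3 with the most variable probe set, 0 with array weights, from only the 4 arrays compared or at an adjusted p under 0.05, and 0 to 17 without single arrays. For IR in tumor T cells, the count at any size was 9 by the robust fit, beside 19.7% of all genes. It was 11 with array weights (21.5% of all genes) and 10 from only the 4 arrays compared (15.4%). For IR in LN T cells, the robust fit gave 1 at both limits and 15 at any size, and leaving out single arrays gave 0 to 10 and 0 to 28. For the interaction these ranges were 0 to 3 and 0 to 9.

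With the T cell scaling the immunoproteasome, core and regulatory medians of IR were -0.16, 0.18 and 0.09 in tumor and 0.01, 0.02 and -0.16 in LN T cells, and the first 2 were 0.17 and 0.13 in tumor over LN without IR. Without single arrays the regulatory median of tumor over LN with IR was -0.32 to 0.43, and the core and regulatory medians of IR in LN T cells were -0.52 to -0.13 and -0.78 to -0.21. The direction was kept under every alternative run by *Psmg1* in tumor over LN without IR, *Psme1* in tumor over LN with IR, *Psmb8* and *Psmb5* for IR in tumor T cells, and *Psmg1* and *Psmg2* for IR in LN T cells. In other comparisons it was not always kept: without LN IR replicate 2, *Psme1* turned to 0.18 for IR in LN T cells and *Psmg2* to -0.18 in tumor over LN with IR. The cause of these changes was not tested.

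Same-numbered tumor and LN arrays deviated together at a correlation of 0.069 without IR and -0.137 with IR. The numbers are thus not shown to pair tumor with LN arrays. Between arrays with and without IR, the correlation was 0.431 in tumor and 0.43 in LN T cells. Within a tissue, same-numbered arrays therefore deviated together in part, which the main fit leaves out. With the replicate block 0, 1, 0 and 0 members passed at any size in these comparisons (8.87%, 13.4%, 0.0824% and 0.973% of all genes). With the numbers crossed in tumor over LN with IR, chosen after seeing the data, 2 passed, and the share of all genes was not computed.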
